A study of Mus musculus with 6 samples.

Results

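The genes described here are 52 mouse genes of skeletal muscle, taken by symbol from 37991 counted genes: parts of the sarcomere, of excitation-contraction coupling and of muscle energy supply, with a few genes of muscle protein turnover. They were listed with earlier results of these same tumours known, so their Null against WT values are a description of a chosen list and carry no test of it. RNA had been sequenced from 6 mouse tumours grown from a cutaneous squamous cell carcinoma line, that is, a cancer arising from keratinocytes of the skin. The Kindlin-1 Null group (knockout, 3 libraries) was compared with the Kindlin-1 WT group (wild type, 3 libraries) to find differences in expression. Both groups carry the same cell line label, and the labels used here give no strain, age, sex or number of knockout clones. By their titles Null libraries 2 and 3 carry the same mouse number, 242, as do WT libraries 1 and 2, number 238. Each number is followed by L or R, which the labels do not explain: R, L and R in Null libraries 1 to 3 and L, R and R in WT libraries 1 to 3, so libraries with the same number carry different letters. The deposited file of Null library 3 carries another number and letter than its title. Should libraries with the same number come from 1 animal, there were fewer animals than libraries in each group, and the tests reflect the spread of libraries, not of animals.

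A sarcomere is the contractile unit of striated muscle. Myosin thick filaments pull on actin thin filaments, titin and the Z disc hold the array together, and troponin and tropomyosin gate the pull by calcium. The calcium leaves the sarcoplasmic reticulum through the ryanodine receptor when the membrane voltage sensor moves, and a calcium ATPase pumps it back, while creatine kinase, myoglobin and glycogen phosphorylase keep ATP supplied. Fast and slow fibres build the same machine from different isoforms. Mouse skin rests on a thin sheet of striated muscle, the panniculus carnosus. In bulk RNA, fewer muscle cells and less muscle RNA per cell cannot be told apart.

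Reads assigned to genes ranged from 1138318 to 31487255 in the Null libraries and from 161711 to 15529242 in the WT libraries. A floor of 3 reads stood between 0.0953 and 2.64 CPM (read counts scaled to library size, with TMM factors for all levels but this floor) in Null and between 0.193 and 18.6 CPM in WT, so a 0 in WT library 2, the shallowest, says little. In that library levels of 6.14, 12.3 and 18.4 CPM are 1, 2 and 3 reads. A gap between groups that turns on them rests on few reads. Floors and intervals cover counting error only. Fermt1, which encodes Kindlin-1 and is the targeted gene, had 0, 2 and 2 reads in Null libraries 1 to 3 and 16, 2 and 1040 reads in WT libraries 1 to 3. The 15 keratinocyte markers summed to 102 to 169 CPM in Null and 171 to 283 CPM in WT. Perp, a desmosome protein, stood between 26.9 and 35.2 CPM in Null and between 83.9 and 141 CPM in WT, and Trp63, a regulator of basal keratinocytes, between 19.7 and 27.6 CPM in Null and between 4.68 and 21.8 CPM in WT. Of the basal keratins Krt14 stood between 5.12 and 10.6 CPM in Null and between 26.3 and 45.3 CPM in WT, and Krt5 between 0 and 0.393 CPM in Null and between 0 and 3.9 CPM in WT. Krt1 had no read in any library.

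The DNA before a muscle gene's start often holds E-boxes, bound by factors such as MyoD, and A/T-rich MEF2 sites, so the start regions of 5 listed genes are shown. They run from 250 bases before to 50 bases after the RefSeq start on build GRCm38.p6. Acta1, Ckm and Mylpf are abundant filament and energy genes, Klhl41 holds both a CAGCTG and a MEF2-like match, and Tpm2 is a listed gene that did not pass the test. Capitals mark CAGCTG, the MEF2-like pattern (CTA and TAG with 4 bases of any kind between them), CATTCC and TATAAA on either strand.
Acta1 (chr8:123894726-123895025, minus strand): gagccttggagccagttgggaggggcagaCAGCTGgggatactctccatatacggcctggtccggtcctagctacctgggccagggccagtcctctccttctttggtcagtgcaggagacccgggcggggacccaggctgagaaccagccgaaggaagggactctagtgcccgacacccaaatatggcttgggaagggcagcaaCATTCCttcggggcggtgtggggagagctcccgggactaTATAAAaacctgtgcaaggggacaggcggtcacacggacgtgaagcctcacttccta
Ckm (chr7:19410844-19411143, plus strand): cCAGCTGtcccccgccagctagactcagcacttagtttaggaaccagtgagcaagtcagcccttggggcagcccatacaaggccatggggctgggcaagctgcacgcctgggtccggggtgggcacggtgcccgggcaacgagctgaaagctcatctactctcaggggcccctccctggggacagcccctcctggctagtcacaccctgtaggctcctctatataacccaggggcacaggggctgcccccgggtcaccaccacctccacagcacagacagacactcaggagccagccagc
Mylpf (chr7:127211358-127211657, plus strand): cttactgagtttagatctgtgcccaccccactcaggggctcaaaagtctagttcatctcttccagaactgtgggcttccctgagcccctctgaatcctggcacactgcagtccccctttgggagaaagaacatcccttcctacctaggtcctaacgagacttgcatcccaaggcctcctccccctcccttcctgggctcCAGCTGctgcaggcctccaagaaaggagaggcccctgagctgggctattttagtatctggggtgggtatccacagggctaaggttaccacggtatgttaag
Klhl41 (chr2:69669870-69670169, plus strand): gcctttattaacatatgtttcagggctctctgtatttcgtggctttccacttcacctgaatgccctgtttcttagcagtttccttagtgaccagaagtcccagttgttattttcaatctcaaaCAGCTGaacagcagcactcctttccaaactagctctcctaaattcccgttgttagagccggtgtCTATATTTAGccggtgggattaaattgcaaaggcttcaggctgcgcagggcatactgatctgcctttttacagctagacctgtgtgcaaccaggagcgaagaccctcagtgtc
Tpm2 (chr4:43523505-43523804, minus strand): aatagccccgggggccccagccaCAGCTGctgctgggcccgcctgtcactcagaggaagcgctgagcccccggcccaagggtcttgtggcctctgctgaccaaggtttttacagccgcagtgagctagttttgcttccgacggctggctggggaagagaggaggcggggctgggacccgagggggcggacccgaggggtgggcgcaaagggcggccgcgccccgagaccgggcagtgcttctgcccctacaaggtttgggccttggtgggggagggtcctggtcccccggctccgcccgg

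Start windows were found for 37 of the 52 genes, 45 windows in all. CAGCTG, the E-box type favoured by MyoD, lay in 24 of the 45 windows (53.3%), against 16.3% of all 32851 windows of the same length. The general E-box CANNTG, which includes CAGCTG, lay in 84.4% of the listed windows and in 72.3% of all windows. The MEF2-like pattern was found in 7 of the 45 windows (15.6%), against 3.69% of all. CATTCC, the core of the TEAD site, lay in 26.7% against 14.7%, and TATAAA in 17.8% against 13.6%. The CAGCTG match began at base -51 in Mylpf, -127 in Klhl41, -221 in Acta1 and -227 in Tpm2, counted from the start, and stood at the far end of the Ckm window. In Klhl41 the MEF2-like match began at -63. Windows of the same gene overlap in part, and a match is a description of these letters only.

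The listed genes took 0.0449%, 0.0509% and 0.0438% of gene reads in Null libraries 1 to 3, against 0.264%, 0.148% and 0.138% in WT libraries 1 to 3. The exact 95% intervals of the Null shares end at 0.0517% at the most, and those of the WT shares begin at 0.13%. Tpm2, a tropomyosin, and Eno3, an enolase, made up 55.9% to 75.9% of the listed reads in Null and 20.9% to 29.7% in WT. Neither passed the test between groups.

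**Figure D1:**
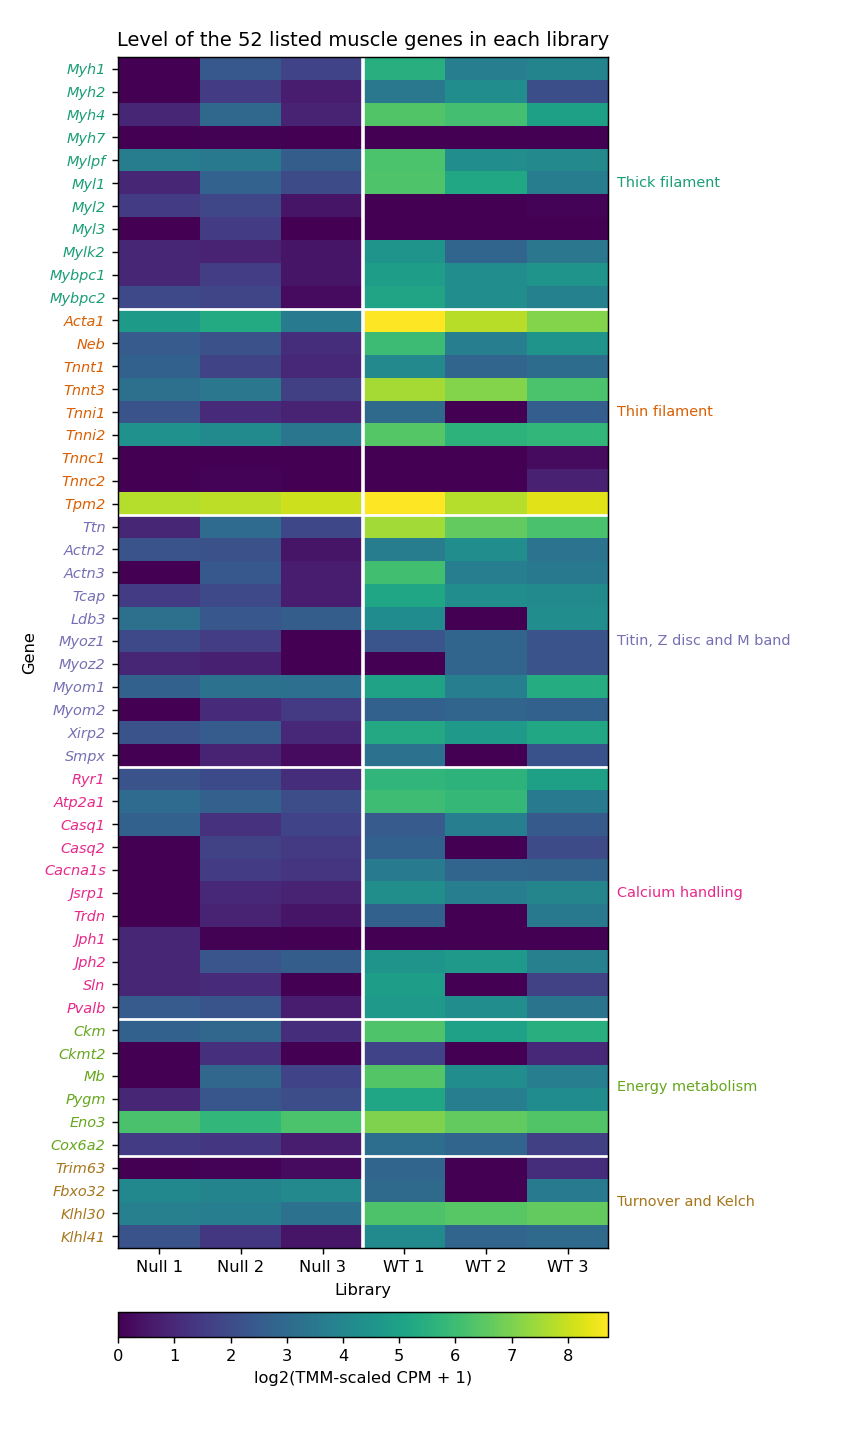
Level of each of the 52 listed genes (rows, grouped by role and coloured) in each library (columns, Null left of WT) as log2 of TMM-scaled CPM plus 1. Most rows are darker in the 3 Null columns, Tpm2 and Eno3 are bright in all 6, and Fbxo32 is brighter in Null.

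Of the 52 genes 38 passed the low-count filter and were tested, and 14 did not pass it. Of the 38, 27 were called lower in Null and 0 higher by edgeR's quasi-likelihood test (Benjamini-Hochberg adjusted p under 0.05). None was higher at an unadjusted p under 0.05 or by DESeq2, while Myl2, too low for the main test, passed as higher when libraries of the same mouse number were summed. Over all 11887 tested genes, 3.52% were called lower and 2.26% higher. The median log2 fold change, Null minus WT, was -2.89 over the 38 and 0.01 over all tested genes. For 34 of the 52 genes all 3 Null values lay below all 3 WT values, which held for 14.3% of all tested genes, and for 2, Myl2 and Fbxo32, all Null values lay above (16.2% of all tested). Because the list was drawn up with this contrast known, nothing is read from these differences. Of the 38, 9 genes passed the filter with no Null library over its minimum of 3.07 CPM. These were Myh2, Mylk2, Mybpc1, Mybpc2, Tcap, Myoz1, Myom2, Cacna1s and Jsrp1. They passed through their WT libraries alone, so that their groups do not overlap was fixed by the filter. Of the 27 calls 18 held in each fit without 1 library that tested the gene. With mouse number as a random effect in limma the count of lower calls was 20: Myh1, Myh4, Mylpf, Myl1, Mybpc2, Actn3, Atp2a1, Pvalb, Mb and Klhl41 lost theirs, and Tnni1, Ldb3 and Myom2 gained one. With libraries of the same mouse number summed it was 25, and Myl1, Actn3, Atp2a1, Cacna1s and Mb lost theirs. DESeq2 called 26, without Actn3, Cacna1s and Mb and with Myh2 and Actn2. Spearman's rho between log2 fold change and exon length was -0.09 across the 38 genes, which are not independent replicates. The 12 tested genes with over 5000 bp of exon had a median of -2.74 and the other 26 a median of -2.89.

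**Figure D2:**
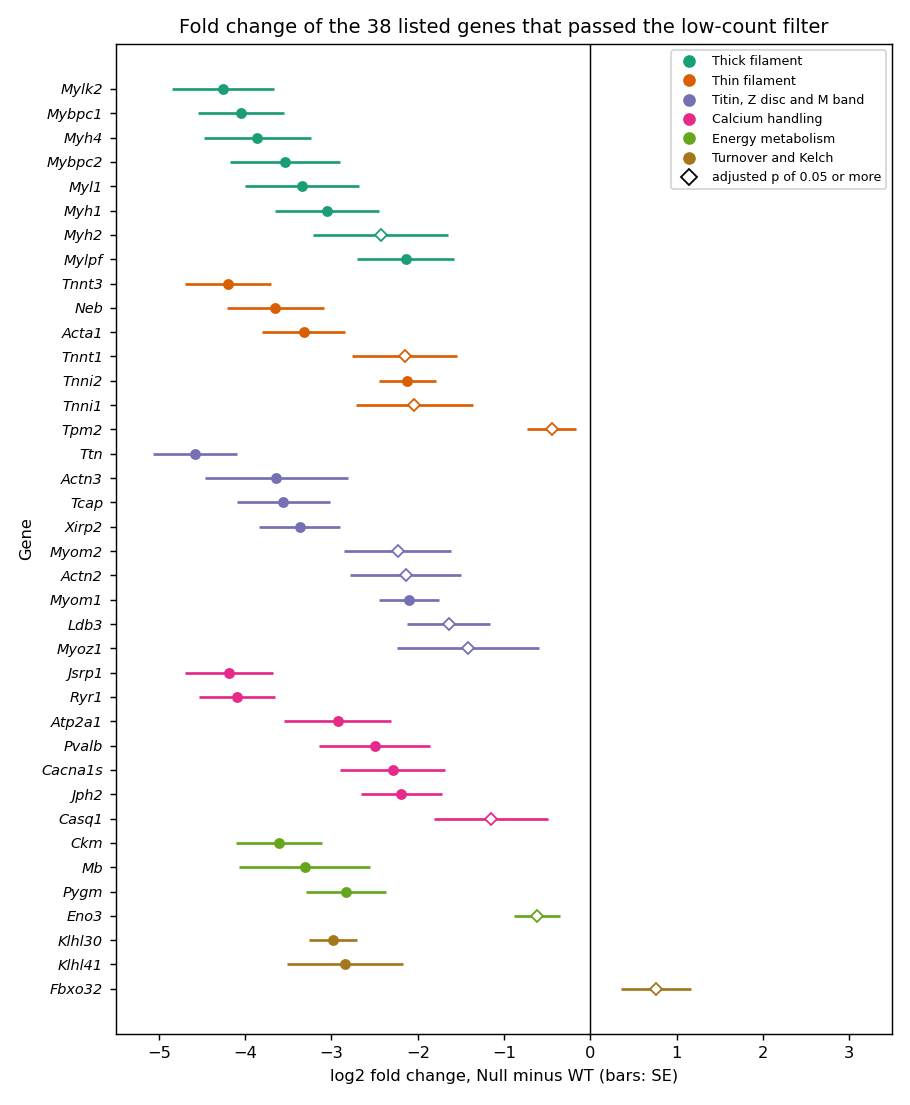
Log2 fold change, Null minus WT, of the 38 tested genes with its SE as bars, coloured by role. Filled circles are the 27 genes called lower, open diamonds those not called, and Fbxo32 is the one point to the right of 0.

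In the role groups that follow, a gene that fell is one called lower. The share over all 11887 tested genes, 3.52% called lower, stands beside these counts. Every tested listed gene but Fbxo32 had a log2 fold change below 0, called or not. Among thick filament genes 7 of 8 tested fell (median -3.44). Myh4, the heavy chain of the fastest (2B) fibres, stood at 0.921, 6.5 and 0.787 CPM in Null libraries 1 to 3, against 81.2, 67.6 and 30.1 CPM in WT libraries 1 to 3. Its log2 fold change was -3.86 (SE 0.62), or -6.09 without Null library 2, the highest of the Null values. Myh1, the 2X heavy chain, stood at 0, 4.28 and 2.36 CPM in Null and 44.5, 12.3 and 14.3 CPM in WT (-3.05, SE 0.6). Its groups did not overlap, but WT library 2 had only 2 Myh1 reads. Myh2, the 2A chain, passed by DESeq2 but not by edgeR (-2.43, SE 0.78), with 0, 1.9 and 0.59 CPM in Null and 10.2, 18.4 and 3.31 CPM in WT. These chains lie side by side in the genome and are near-identical, so reads can be split between them or dropped.

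The light chains stabilise and tune the myosin neck. Mylpf, the fast regulatory chain, stood at 12, 10.5 and 4.92 CPM in Null and 75, 18.4 and 16.3 CPM in WT. The groups did not overlap, but WT library 2 had only 3 Mylpf reads and WT library 1 was far above the other 2. The log2 fold change of -2.14 (SE 0.56) was -0.91 without WT library 1, with the call lost. Myl1, the fast essential chain, stood at 0.921, 5.67 and 2.95 CPM in Null and 78.9, 36.9 and 12 CPM in WT. Its change of -3.34 (SE 0.66) was -2 without WT library 1, and its call was lost without WT library 1 or Null library 1. Mylpf also lost its call without WT library 2, Null library 1 or Null library 3. Mylk2, the kinase of the skeletal regulatory chain, stood at 0.921, 0.824 and 0.393 CPM in Null and 21.9, 6.14 and 10 CPM in WT (-4.26, SE 0.59). The myosin-binding proteins that brace the thick filament fell too. Mybpc1, the slow type, stood at 0.921, 2 and 0.393 CPM in Null and 28.1, 18.4 and 21.7 CPM in WT (-4.05, SE 0.5). Mybpc2, the fast type, stood at 2.76, 2.5 and 0.197 CPM in Null and 32.8, 18.4 and 13.1 CPM in WT (-3.54, SE 0.64). Both passed the filter through their WT libraries alone, so that neither overlapped between groups was fixed by the filter. Each had 3 reads in WT library 2.

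Of the thin filament genes 4 of 7 tested fell. Per kilobase of exon the most abundant listed gene in WT was Acta1, skeletal alpha-actin, at 16.6 CPM per kb in Null and 168 CPM per kb in WT, followed in WT by Tpm2 (81.7 in Null and 109 in WT) and Tnnt3 (4.33 in Null and 83.4 in WT). Acta1 stood at 25.8, 39.2 and 11.4 CPM in Null and 413, 221 and 138 CPM in WT (log2 fold change -3.32, SE 0.48). Every WT library exceeded every Null library, and WT library 1 was the highest. Tnnt3, fast troponin T, stood at 8.29, 10.1 and 2.16 CPM in Null and 186, 135 and 75.3 CPM in WT (-4.2, SE 0.5). Neb, the giant nebulin that spans the thin filament, fell by 3.65 (SE 0.56).

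Tnni2, the fast troponin I that blocks contraction at low calcium, fell less, by 2.12 (SE 0.33), with 20.3, 16.5 and 9.64 CPM in Null and 85.1, 49.1 and 53.4 CPM in WT. Of the slow partners, Tnnt1 stood at 5.53, 2.44 and 0.984 CPM in Null and 16.4, 6.14 and 7.55 CPM in WT, and Tnni1 at 3.68, 1.11 and 0.787 CPM in Null and 7.03, 0 and 5.12 CPM in WT. Neither passed (-2.15, SE 0.61, and -2.04, SE 0.68). Tpm2, beta-tropomyosin, which smooth muscle and other cells also use, stood at 216, 230 and 266 CPM in Null and 421, 215 and 317 CPM in WT. Its groups overlapped and it did not pass (-0.45, SE 0.28). Both troponin C genes were almost unread: Tnnc1 had 3 reads in WT library 3 only, and Tnnc2 had 2 reads in Null library 2 and 12 in WT library 3. In the later annotation the antisense genes Nisch and Ube2c overlap Tnnc1 and Tnnc2, and 27 of the 52 listed genes overlap some antisense gene. What this did to their counts was not tested.

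Of the genes of titin, the Z disc and the M band 5 of 9 tested fell. Ttn, titin, which runs from Z disc to M band and sets elasticity, stood at 0.921, 7.35 and 2.75 CPM in Null and 180, 98.3 and 73.8 CPM in WT. This was the lowest fold change of the list (-4.58, SE 0.49). Tcap, the cap on titin's Z disc end, stood at 1.84, 2.79 and 0.59 CPM in Null and 34.4, 18.4 and 16.7 CPM in WT (-3.56, SE 0.54). Xirp2, an actin-binding protein near the Z disc, fell by 3.37 (SE 0.47). Myom1, myomesin of the M band, stood at 5.53, 8.43 and 8.07 CPM in Null and 31.2, 12.3 and 41.4 CPM in WT (-2.1, SE 0.35).

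Actn3, the alpha-actinin of fast fibres, stood at 0, 4.31 and 0.59 CPM in Null and 67.2, 12.3 and 10.5 CPM in WT. The gap was widest in WT library 1, and the change of -3.64 (SE 0.83) was -2.12 without that library and -6.04 without Null library 2. The Actn3 call was lost without WT library 1 or 2 and without Null library 1 or 3. Its wider-ranging relative Actn2 stood at 3.68, 3.49 and 0.393 CPM in Null and 11.7, 18.4 and 8.92 CPM in WT, and passed by DESeq2 but not by edgeR (-2.14, SE 0.64). Myom2 (-2.23, SE 0.62), Ldb3 (-1.64, SE 0.48) and Myoz1 (-1.42, SE 0.82) did not pass. Myoz2, the calcineurin-binding Z disc protein of slow fibres, and Smpx, a small muscle protein, were too low to test, with at most 60 reads in any library.

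Of the calcium genes 6 of 7 tested fell. Ryr1, the release channel of the sarcoplasmic reticulum, stood at 3.68, 2.88 and 1.18 CPM in Null and 52.3, 49.1 and 30.1 CPM in WT (-4.09, SE 0.44). All WT values lay far above the Null values. Jsrp1, a protein of the junctional membrane that links channel and voltage sensor, had 0, 31 and 4 reads in Null and 24, 2 and 232 reads in WT (-4.19, SE 0.51). Cacna1s, the voltage sensor itself, fell by 2.29 (SE 0.61), a call lost without WT library 1 or 2 or Null library 1, and Jph2, which ties the membranes together, stood at 0.921, 3.93 and 4.92 CPM in Null and 21.9, 24.6 and 12.8 CPM in WT (-2.19, SE 0.47), a call lost without Null library 1. Trdn, triadin of the release complex, had 0, 26 and 2 reads in Null and 7, 0 and 168 reads in WT, and Casq2, the calsequestrin of heart and slow fibres, had 0, 73 and 9 reads in Null and 7, 0 and 48 reads in WT. Neither passed the filter, and both had 0 reads in WT library 2, where 1 read is 6.14 CPM. Trdn stood at 5.47 and 10.5 CPM in WT libraries 1 and 3.

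Atp2a1, the calcium pump of fast fibres, stood at 7.37, 5.39 and 3.15 CPM in Null and 63.2, 55.3 and 10.9 CPM in WT. WT library 3 was nearer to the Null values than to the other WT libraries, and the change of -2.93 (SE 0.62) was -1.9 without WT library 1, where the call was lost, as it was without Null library 1. Pvalb, the calcium buffer parvalbumin, stood at 4.61, 3.84 and 0.59 CPM in Null and 25, 18.4 and 9.24 CPM in WT (-2.5, SE 0.64), a call lost without WT library 1 or 2 or Null library 1 or 3. Casq1, which stores calcium in the reticulum, overlapped between groups with 5.53, 1.36 and 2.36 CPM in Null and 4.68, 12.3 and 4.56 CPM in WT, and did not pass (-1.15, SE 0.66). Jph1 had 2 reads in all. Sln, sarcolipin, an inhibitor of the pump, had 1, 35 and 0 reads in Null and 37, 0 and 36 reads in WT, so that 28.9 CPM in WT library 1 stood beside 2.25 CPM in WT library 3.

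Of the energy genes 3 of 4 tested fell. Ckm, the creatine kinase that rebuilds ATP at the myofibril, stood at 5.53, 6.37 and 1.18 CPM in Null and 78.1, 30.7 and 44.3 CPM in WT (-3.61, SE 0.5). Pygm, muscle glycogen phosphorylase, stood at 0.921, 4.03 and 3.15 CPM in Null and 35.1, 12.3 and 17.7 CPM in WT (-2.83, SE 0.46). Neither gene overlapped between groups, though Pygm had only 2 reads in WT library 2. Mb, the oxygen store myoglobin, stood at 0, 6.31 and 2.36 CPM in Null and 83.5, 18.4 and 12.4 CPM in WT. Its change of -3.31 (SE 0.76) was -1.74 without WT library 1 and -4.51 without Null library 2, and its call was lost without WT library 1 or 2 or Null library 1 or 3. Eno3, the muscle enolase of glycolysis, stood at 73.7, 53.7 and 75.5 CPM in Null and 131, 98.3 and 80.8 CPM in WT and did not pass (-0.62, SE 0.27). Cox6a2, a muscle subunit of cytochrome oxidase, had 2, 51 and 3 reads in Null and 10, 1 and 35 reads in WT, and Ckmt2, mitochondrial creatine kinase, 0, 42 and 0 reads in Null and 3, 0 and 16 reads in WT. Both were too low to test.

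Of the turnover and Kelch genes 2 of 3 tested fell. Klhl30, a Kelch-family protein, stood at 12.9, 12.4 and 8.46 CPM in Null and 76.5, 86 and 98.5 CPM in WT, with a change of -2.98 (SE 0.28). The WT values did not overlap the Null values, and WT library 1 was the lowest of them. Klhl41, which stabilises nebulin, fell by 2.84 (SE 0.67), a call lost without WT library 1 or Null library 1. Fbxo32, the ubiquitin ligase atrogin-1 of muscle wasting, stood at 15.7, 14.4 and 16.1 CPM in Null and 7.03, 0 and 11.2 CPM in WT, the one positive fold change among the tested genes (0.76, SE 0.4), which did not pass. Its partner in muscle atrophy, Trim63 (MuRF1), had 0, 2 and 1 reads in Null and 8, 0 and 19 reads in WT.

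The fast and slow members of 10 protein pairs were compared within each library by their reads per kilobase. Over all pairs the fast share was 85.8%, 85.6% and 90.3% in Null libraries 1 to 3 and 94.3%, 93.3% and 89.6% in WT libraries 1 to 3 (87.2% ± 2.69 in Null and 92.4% ± 2.45 in WT, SD, n = 3 each). Null library 3 lay above WT library 3, so the groups overlapped. The 523 slow reads of Null library 2 included 82 of Myl2 and 60 of Myl3, which are described below. Troponin I was almost wholly fast in both groups, between 93% and 97.3% in Null and between 96.2% and 100% in WT. Troponin T was fast to 67.6%, 85.2% and 75.4% in Null and to 94%, 96.8% and 93.3% in WT, with no overlap. As a share of raw reads it was 80.6% in Null library 2 (exact 95% interval 76.3 to 84.3) and 90.9% in WT library 3 (89.2 to 92.4), the deepest library of each group. In Null library 1 it was 60% (32.3 to 83.7) and in WT library 2 95.7% (78.1 to 99.9), so these intervals overlapped. The regulatory light chain was fast to 92.3%, 88.1% and 95.8% in Null and to 100%, 100% and 99.8% in WT, again with no overlap of values. Its raw intervals did overlap, at 59.5 to 98.3 in Null library 1, 75.7 to 99.1 in Null library 3 and 96.2 to 100 in WT library 1. WT library 2 had 3 fast reads and no slow read (29.2 to 100). Troponin C had reads only in Null library 2 and WT library 3. No other pair kept the groups apart. Calsequestrin was fast to 100%, 45.2% and 65.2% in Null and to 54.6%, 100% and 68.1% in WT. Myozenin was fast to 84.4% and 84% in Null libraries 1 and 2, with no read in Null library 3, and to 100%, 64.4% and 64% in WT. For myosin-binding protein C the fast form gave 55.6% of raw reads in Null library 2 (47.1 to 64) and 53.8% in WT library 1 (42.2 to 65.2), but 37.7% in WT library 3 (33.7 to 41.9). Alpha-actinin was 55.3% fast in Null library 2 (48.8 to 61.6), 85.1% in WT library 1 (76.7 to 91.4) and 54.2% in WT library 3 (48.5 to 59.8), so the WT libraries lay on both sides of Null library 2. Actn2, counted here and in the share over all pairs as the slow member, is wider-ranging, so this pair is not strictly fast against slow. Among the 3 fast myosin heavy chains Myh4 gave 51.2% of reads in Null library 2 (46.2 to 56.2) and 21.1% in Null library 3 (6.05 to 45.6, over 19 reads), against 59.8% in WT library 1 (52.1 to 67.1) and 63.1% in WT library 3 (59.6 to 66.6). The intervals of the 2 Null libraries did not overlap. Myh2 gave 15% in Null library 2 (11.6 to 18.9), 7.47% in WT library 1 (4.04 to 12.4) and 6.93% in WT library 3 (5.23 to 8.96). The heavy chain split was chosen after its values were seen.

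**Figure D3:**
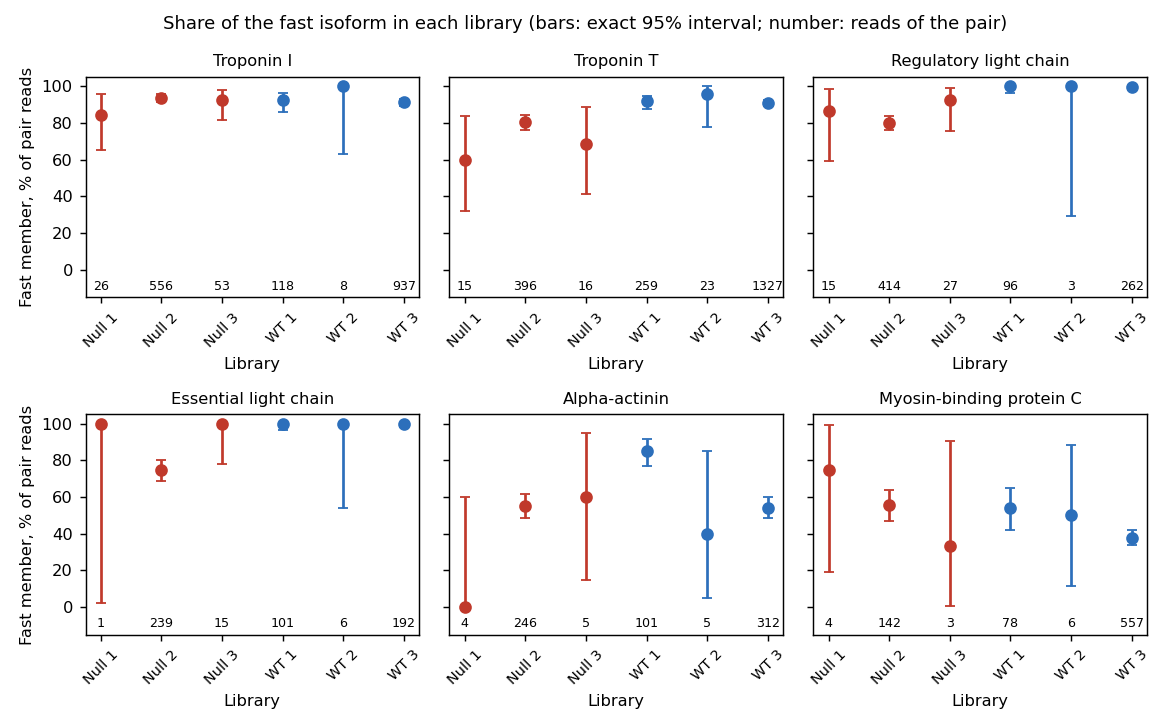
Share of the fast isoform in the raw reads of 6 pairs, by library (Null in red, left, WT in blue), with exact 95% binomial intervals and the number of reads of the pair under each point. The points of troponin T and the regulatory light chain are lower in all 3 Null libraries than in any WT library, though some intervals overlap. The essential light chain is below 100% only in Null library 2.

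Reads of the slow light chains came mostly from Null library 2, the deepest library. Myl2, the regulatory chain of slow and ventricular muscle, had 2, 82 and 2 reads in Null libraries 1 to 3 and 0, 0 and 1 reads in WT libraries 1 to 3. Myl3, the essential chain of the same fibres, had 60 reads in Null library 2 and 0 in the other 5 libraries. Both were too low for the main test, and Myl2 passed as higher in Null when libraries of the same mouse number were summed. Myh7, the slow heavy chain that goes with them, had 1 read in all. Myh6, the heart's alpha heavy chain and no member of the list, had 204 reads in Null library 2 (6.47 CPM) and 0 in the other 5, among them WT library 3, where 3 reads are 0.193 CPM, and Null library 3, where they are 0.574 CPM. Myh6 and Myh7 are near-identical neighbours, so their reads can be split or dropped. Of the other heart markers Myl7, an atrial light chain, had 8 reads in Null library 2 and 0 elsewhere. Actc1, cardiac actin, had 1, 59 and 7 reads in Null and 0, 0 and 6 reads in WT. Its levels were 0.921, 1.87 and 1.38 CPM in Null, above the 0, 0 and 0.374 CPM in WT, and it was too low to test. Nppa had 1, 12 and 0 reads in Null and 0, 0 and 1 reads in WT. Nppb had 0, 3 and 1 reads in Null and 0, 0 and 8 reads in WT. Mybpc3 had 3, 52 and 5 reads in Null and 0, 2 and 20 reads in WT. Myl4, another light chain of this list, stood lower in Null, at 3.68, 4.5 and 5.9 CPM against 11.7, 18.4 and 11.2 CPM in WT. It did not pass (-1.31, SE 0.41). Tnni3, cardiac troponin I, had 0, 134 and 24 reads in Null and 11, 1 and 234 reads in WT, at 4.25 CPM in Null library 2 against 14.6 CPM in WT library 3, the opposite order to Myh6. The summed level of the 10 heart markers was 15.7, 34.2 and 23.2 CPM in Null and 76.5, 98.3 and 106 CPM in WT, of which Tnnt2, a troponin T of heart and of immature skeletal muscle, gave 0.921, 5.39 and 1.18 CPM in Null and 36.7, 49.1 and 50.4 CPM in WT. These heart genes were picked out after their values were seen, and their part in the Myl2 and Myl3 reads was not tested.

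**Figure D4:**
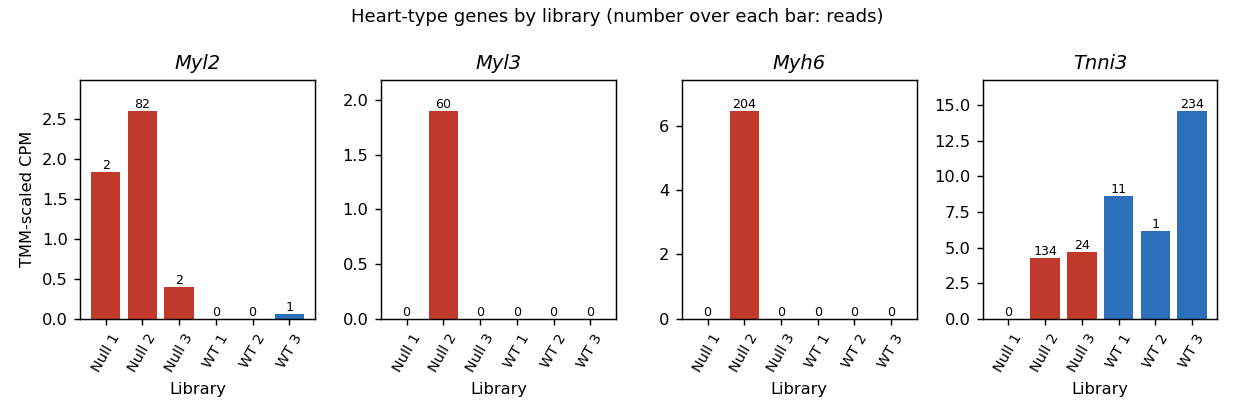
TMM-scaled CPM of Myl2, Myl3, Myh6 and Tnni3 in each library, with raw reads over the bars (Null red, left, WT blue). Myl3 and Myh6 have reads in Null library 2 alone, while Tnni3 is higher in WT library 3 than in any Null library.

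The listed genes also varied within groups. Of 45 listed genes with reads in both, 23 were over 2-fold and 7 over 4-fold higher in WT library 1 than in WT library 3, and 6 were lower. The ratio was 12.9 for Sln, 6.73 for Mb, 6.58 for Myl1, 6.37 for Actn3, 5.79 for Atp2a1, 5.27 for Trim63 and 4.6 for Mylpf. It was 0.521 for Trdn, 0.626 for Fbxo32, 0.755 for Myom1, 0.777 for Klhl30, 0.989 for Ldb3 and 0.995 for Myom2. In these libraries Gapdh, a glycolytic enzyme outside the list, was also at 631 CPM in WT library 1 and 112 CPM in WT library 3, and reads with several alignments made up 34.1% of reads in WT library 1 and 40% in WT library 3. Their part in the difference was not tested. Within Null, 43 listed genes were higher in library 2 than in library 3 and 8 lower, and the median log2 ratio (CPM plus 1) was 0.76, against 0.8 for WT library 1 over WT library 3 and 0.88 for WT library 1 over WT library 2.

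**Figure D5:**
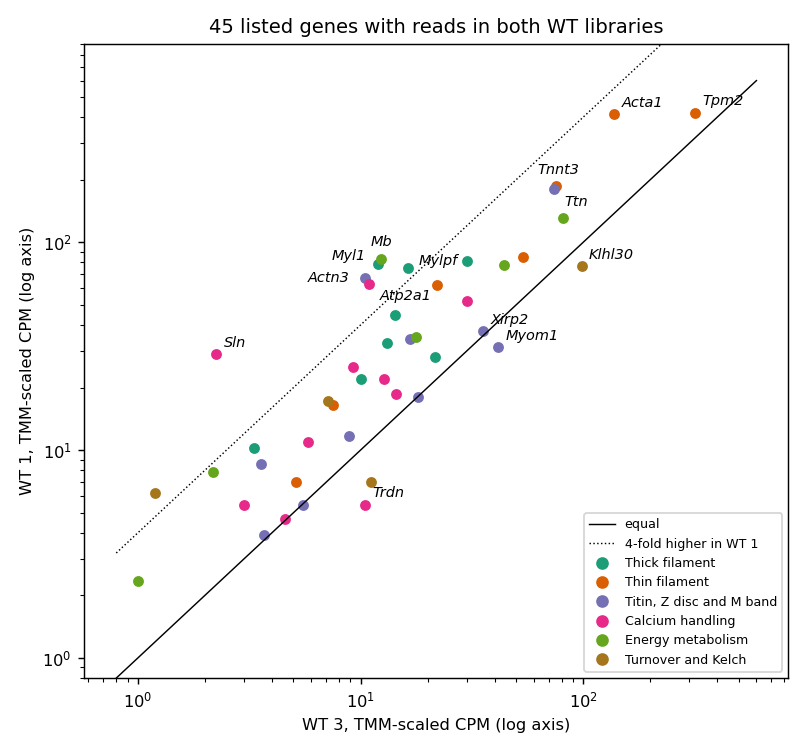
TMM-scaled CPM of the 45 listed genes with reads in both WT library 1 (vertical) and WT library 3 (horizontal), on log axes, coloured by role, with a line of equality and a dotted line at 4-fold. Sln, Mb, Myl1, Actn3, Atp2a1, Trim63 and Mylpf lie above the dotted line, and Trdn, Fbxo32, Myom1, Klhl30, Ldb3 and Myom2 below equality.

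Other striated muscle genes were read from the same fit. They were listed for their known role, but with earlier results of these data known, so their counts are a description too. Of 104 such genes 56 were tested, 16 fell and 0 rose by edgeR's test (median -0.71, against 0.01 over all tested genes). Of all 11887 tested genes 3.52% were called lower and 2.26% higher. DESeq2 called 0 higher too, and 1 was higher at an unadjusted p under 0.05. Of the 24 tested structural genes 11 fell, among them Lmod2 (-3.84, SE 0.77), a thin filament leiomodin, and Des (-3.61, SE 0.37), the desmin filament. Des stood at 12, 17.9 and 12.2 CPM in Null and 278, 111 and 128 CPM in WT, with no overlap. Pdlim7 (-1.38, SE 0.28), an actin-associated LIM protein, and Cryab (-1.44, SE 0.34), a chaperone, fell least there, after Synpo2l (-2.93, SE 0.6). Of 12 tested calcium and excitation genes 3 fell, among them Cacng1 (-3.58, SE 0.75) and Cacnb1 (-2.21, SE 0.41), subunits of the voltage sensor. Of 20 tested energy genes 2 fell, Pgam2 (-2, SE 0.42), muscle phosphoglycerate mutase, and Ckb (-0.91, SE 0.24), brain-type creatine kinase. The median of the 20 energy genes was -0.08. They include enzymes that most cells use, such as Pkm and Ldha, so this median is not of muscle alone. Pkm stood at 2290, 2230 and 2260 CPM in Null and 1910, 1960 and 1590 CPM in WT. The median over the 56 includes these genes too. Des, Cmya5, Xirp1 and Flnc were among the genes that kept their calls in every fit without 1 library that tested them, and 10 of the 16 lost theirs in at least 1 such fit. Without Null library 3 the count over the list was 7, without Null library 1 it was 8 and without Null library 2 it was 10.

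Markers of other cell types were read beside the muscle genes, and their part in the muscle values was not tested. The shares over all tested genes, 3.52% called lower and 2.26% higher, stand beside the counts below. Of 10 adipocyte markers 4 were tested and 3 fell, Cfd (-4.69, SE 0.62), Lpl (-1.58, SE 0.35) and Car3 (-3.55, SE 0.79), and the list summed to 45.6 to 94 CPM in Null and 108 to 274 CPM in WT. Fabp4 did not pass (-0.5, SE 0.4), and the other 6 were too low to test. Cidec had no read in Null, against 4.68, 18.4 and 1.81 CPM in WT, and Plin1 had 1 read in WT library 1 only. Plin4 had 0, 11 and 4 reads in Null and 20, 0 and 118 reads in WT. Adipoq had 0, 18 and 0 reads in Null and 15, 0 and 1 reads in WT. Pparg had 0, 53 and 14 reads in Null and 4, 0 and 31 reads in WT, and Lep had 2 reads in Null library 2 only. Of 10 neuromuscular and Schwann cell markers 4 were tested and 2 fell, among them Chrnb1 (-1.99, SE 0.41), an acetylcholine receptor subunit (summed level 17.5 to 23.2 CPM in Null and 30.7 to 64.2 CPM in WT). Of 10 myogenic regulator and satellite cell markers 2 were tested and Des, already counted among the other striated muscle genes, fell. Pax7 and Myf5, which mark muscle stem cells and early myoblasts, had no read in any library, and Myod1 stood between 0 and 0.0317 CPM in Null and 0 and 2.34 CPM in WT. Other markers of this list had reads but were not tested. Myog had 1, 12 and 0 reads in Null and 2, 0 and 39 reads in WT. Myh3 had 0, 6 and 1 reads in Null and 0, 0 and 37 reads in WT. Myh8 had 0, 47 and 2 reads in Null and 5, 0 and 34 reads in WT. Myf6 and Mymk had reads in Null library 2 and WT library 3 only. Of 10 smooth muscle and pericyte markers 7 were tested and 2 fell, Cspg4 (-3.38, SE 0.31) and Notch3 (-1.82, SE 0.46), while Acta2, smooth muscle actin, did not pass (0.04), and the sums overlapped (430 to 642 CPM in Null and 522 to 903 CPM in WT). Of the heart markers 4 were tested and 2 fell, Tnnt2 (-3.72, SE 0.49) and Ankrd1 (-1.42, SE 0.35). Of 9 tested keratinocyte markers Perp (-1.89, SE 0.28) and Krt14 (-2.04, SE 0.38) fell and Krt15 (2.26, SE 0.52) rose. Of 7 fibroblast markers Col1a2 (-1.61, SE 0.34) fell and Dcn (1.44, SE 0.33) and Lum (2.92, SE 0.33) rose (sums of 6000 to 7190 CPM in Null and 3950 to 5780 CPM in WT). None of 5 endothelial markers passed edgeR's or DESeq2's test (log2 fold changes between 0.06 and 0.41), and 0 had an unadjusted edgeR p under 0.05. Of the calls on these markers Krt14, Perp, Cfd, Cspg4, Tnnt2, Des and Lum held in each fit without 1 library, and the other 10 calls were lost in at least 1 such fit. Brown fat had 1 tested marker, Dio2, which rose (3.13, SE 0.67), while Ucp1 had no read in Null and 0.125 CPM in WT library 3.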

How the data were processed

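Per the submitters' processing notes, the sources name TopHat2, Cuffdiff, DESeq2 and the mouse build mm9, with no versions or roles. The deposited values are raw read counts per Ensembl gene, 1 file a library, and whether the authors counted by strand is not given in the sources used here. The 5 lines of unassigned reads per file were left out, among them reads with several alignments (32.9% to 40% of a library's reads). Symbols were matched for 32919 of 37991 gene IDs (86.6%).

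Counts were tested with edgeR 4.0.16 (R 4.3.3) in its quasi-likelihood fit of Null against WT, with TMM scaling, the filterByExpr filter (minimum count 10) and Benjamini-Hochberg adjustment over 11887 genes at 0.05. The procedure was tested on simulated data. Levels are TMM-scaled CPM. Exon lengths and overlaps come from GENCODE vM21, which is of another build than the counts, and start sequences from RefSeq (GRCm38.p6). An exact permutation test of 3 against 3 cannot go below p = 0.1. Members and gene lists were chosen with earlier results of these data known. Any listed gene could be named, and those highest per kilobase in each role and each fast and slow pair were to get values by library. Of the other muscle genes the 3 called furthest from 0 and the 3 nearest to it in each class were named, and of the markers all called genes, except a few genes that are not reported here. Alternatives were RLE scaling, DESeq2 1.42.0, other filters, each library left out, libraries of a shared mouse number summed, and limma 3.58.1 with mouse number as a random effect.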

Additional observations from a re-analysis of the deposited data

How the results depend on the processing

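Leaving out each library in turn gave 179 to 855 changed genes (688 with all 6), 19 to 25 of the listed muscle genes lower (27 with all 6), a median log2 fold change over the list of -3.89 to -2.12 (-2.89 with all 6), 7 to 19 other striated muscle genes lower (16 with all 6) and a fast isoform share of -6.74 to -4.25 percentage points, Null minus WT (-5.19 with all 6). The count of changed genes was 179 without Null library 1, 225 without Null library 3 and 281 without WT library 3, and the median was furthest from 0 without Null library 2 and nearest to it without WT library 1. A minimum of 10 CPM in 3 libraries left 9 other striated muscle genes lower, and limma with mouse number as a random effect gave a median of -2.21 over the list. The number of listed genes called lower was 27 with RLE scaling, 26 with DESeq2, 29 with no filter, 23 with the 10 CPM minimum, 25 with shared mouse numbers summed and 20 with the random effect. With shared mouse numbers summed, Myl2 passed as higher. Of the values of the 38 listed genes tested with all 6 libraries, 367 kept direction and side of the threshold under these alternatives. Of the rest 48 lost the call, 9 gained it and 0 changed direction. Myl2, Sln, Smpx, Trdn and Trim63 did not pass the main low-count filter and are outside these counts, though each was called in at least 1 alternative. The cause was not tested. No paired analysis was possible because the groups share no mouse number. In WT library 2 the depth limits every low gene.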
